A study of Mus musculus with 8 samples.

Results

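Interferon-induced GTPases are enzymes that cells make when interferon reaches them, and 9 of them were followed here in the dorsal root ganglia (DRG) of mice whose hind paw had been inflamed with carrageenan. The 9 genes were the rows of the count table named Gbp2, Gbp3, Gbp6, Gbp7 and Gbp9, which encode guanylate-binding proteins, and Igtp, Irgm1, Irgm2 and Iigp1, which encode immunity-related GTPases. They are 9 of 24421 genes in the table, and all 9 passed the filter on low counts that left 17328 genes for testing. They were chosen from their CPM (defined below) in these 8 libraries with the rise at 1d known, so their levels and changes are given below as a description, and the fit's threshold is used only to say which of them passed it.

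All mice were wild type by the WT of the sample labels, C57BL/6J and 8 weeks old by the series' design, while the study's methods give males of the JRj substrain and an age range that starts there and runs higher. The 0d mice were naive, and the 1d, 3d and 30d mice had received 20 µl of 1% carrageenan, a seaweed polysaccharide that inflames tissue, in the left hind paw 1, 3 or 30 days before the ganglia L3 to L5 were taken. There were 2 libraries per time point, each from RNA pooled from 2 to 3 mice, so the error given is that between pools. No mice injected with vehicle were analysed here, so an effect of carrageenan and an effect of the injection cannot be told apart.

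Interferons are secreted when cells sense infection or damage, and their receptors act through Janus kinases and STAT proteins on genes that carry short response elements near their start. Interferon gamma acts mainly through STAT dimers at gamma-activated sites (GAS), and the type I interferons act mainly through a complex that holds STAT2 and IRF9 at interferon-stimulated response elements (ISRE). Guanylate-binding proteins are large GTPases related to dynamin that assemble on membranes around intracellular microbes and help to open them. Immunity-related GTPases are smaller relatives of 2 kinds: the regulators encoded by Igtp, Irgm1 and Irgm2 sit on the cell's own membranes and hold back the effectors, of which Iigp1 encodes a well-known one that loads onto the vacuoles of parasites. Both families are known best from macrophages and fibroblasts, and many other cell types make them in response to interferon.

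The libraries held 44123208 to 73580338 counts on genes, and the least abundant of the 9 genes still had 127 counts in its lowest library. Values are CPM, a gene's counts scaled to the same total in every library, after TMM scaling, whose factors lay between 0.993 and 1.01. The cell type label reads DRG neurons, but the libraries held RNA of the whole ganglion: 12 sensory neuron markers summed to 13756 to 14957 CPM and 5 satellite glia markers to 796 to 878 CPM. In such bulk RNA, more cells of a type and more RNA per cell cannot be told apart.

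The genes lie in 5 places in mm10. Gbp7 (chr3:142530336-142550151), Gbp3 (chr3:142560052-142573212) and Gbp2 (chr3:142620663-142638008) stand on the plus strand of chromosome 3 in the order Gbp5, Gbp7, Gbp3, Gbp2b and Gbp2. Gbp9 (chr5:105078394-105110292) and Gbp6 (chr5:105270702-105293699) stand on the minus strand of chromosome 5 among Gbp8, Gbp4, Gbp10 and Gbp11. Igtp (chr11:58199556-58207592) and Irgm2 (chr11:58214977-58222783) are neighbours on the plus strand of chromosome 11, 7384 bases apart. Irgm1 (chr11:48865249-48871346) stands on the minus strand of the same chromosome beside the immunity-related GTPase genes Gm5431 and Gm12185. Iigp1 lies apart from these clusters.

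The sequences just upstream of these genes are shown because an ISRE core was found there in each gene that could be matched, with a GAS core beside it in some. RefSeq promoter windows (GRCm38.p6, 250 bases before to 50 bases after a start site) were matched by symbol for 6 of the 9 genes, Gbp2, Gbp3, Gbp7, Igtp, Irgm1 and Irgm2, in 7 windows, since Gbp3 has 2 start sites. Each window was searched on both strands for the ISRE core (GAAA, any 2 bases, GAAA) and the GAS core TTCNNNGAA. The 110 bases before the start site are printed 5′ to 3′ on the gene's own strand, with every base inside a match in capitals. A match is a description of letters and was not tested for binding.
Gbp7, chr3:142530226-142530335, plus strand: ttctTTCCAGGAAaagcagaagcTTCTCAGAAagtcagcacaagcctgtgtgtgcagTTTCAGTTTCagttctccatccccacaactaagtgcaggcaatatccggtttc
Gbp3, chr3:142559934-142560043, plus strand: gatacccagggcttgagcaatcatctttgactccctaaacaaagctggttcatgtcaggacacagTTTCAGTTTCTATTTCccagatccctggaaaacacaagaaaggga
Gbp2, chr3:142620553-142620662, plus strand: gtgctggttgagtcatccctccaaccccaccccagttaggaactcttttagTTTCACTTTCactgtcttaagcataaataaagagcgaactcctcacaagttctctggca
Irgm1, chr11:48871421-48871530, minus strand: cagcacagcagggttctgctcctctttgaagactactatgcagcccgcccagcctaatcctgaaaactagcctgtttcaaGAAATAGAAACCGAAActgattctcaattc
Igtp, chr11:58199446-58199555, plus strand: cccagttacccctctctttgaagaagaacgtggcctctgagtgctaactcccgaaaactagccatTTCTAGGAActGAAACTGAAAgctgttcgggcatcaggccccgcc
Irgm2, chr11:58214867-58214976, plus strand: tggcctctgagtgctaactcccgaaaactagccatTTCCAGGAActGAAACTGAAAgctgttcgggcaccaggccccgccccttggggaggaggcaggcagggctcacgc

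The ISRE core was found in 6 of the 7 windows and in each of the 6 genes, whereas 3.44% of all 32851 RefSeq windows of that length held it. All of these matches lay between positions -64 and -15 from the start site. In Gbp7 the ISRE core stood at positions -53 to -44 from the start site, in Gbp2 at -59 to -50, and in Gbp3 at -45 to -36 and again at -39 to -30, which overlap. These matches in the guanylate-binding protein genes read on the strand opposite to the gene. In Irgm1 the core stood at -30 to -21 and, overlapping it, at -24 to -15, and in Irgm1, Igtp and Irgm2 it read on the gene's strand. ISRE cores at 2 or more positions, as in Gbp3 and Irgm1, occurred in 0.225% of all windows. Windows of some relatives, described below, were searched too. An ISRE core was found in Gbp5, Gbp2b, Gm1966, Gm12185, 9930111J21Rik1, Tgtp1, Tgtp2 and Gm12250. Of these, Gbp2b had too few counts to be tested, and in 9930111J21Rik1 the core stood after the start site. Neither an ISRE nor a GAS core was found in Irgq, Gm5431, 9930111J21Rik2 or Ifi47, of which Ifi47 rose. Whether the core goes with a rise was not tested.

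The GAS core was found in 3 of the 7 windows, those of Gbp7, Igtp and Irgm2, against 8.30% of all windows, and 0.454% of all windows held both cores. In Gbp7 it stood at -106 to -98 and at -87 to -79. In Igtp it stood at -45 to -37, just upstream of the ISRE core at -34 to -25. In Irgm2 it stood at -75 to -67, with the ISRE core at -64 to -55, at the same distance from each other as in Igtp. The Igtp and Irgm2 stretches can be laid over each other without a gap, and 78 of the 80 bases they then share were identical. The windows of Tgtp1, Tgtp2 and Gm12185, other immunity-related GTPase genes of chromosome 11, hold a GAS and an ISRE core at that distance too.

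**Figure D1:**
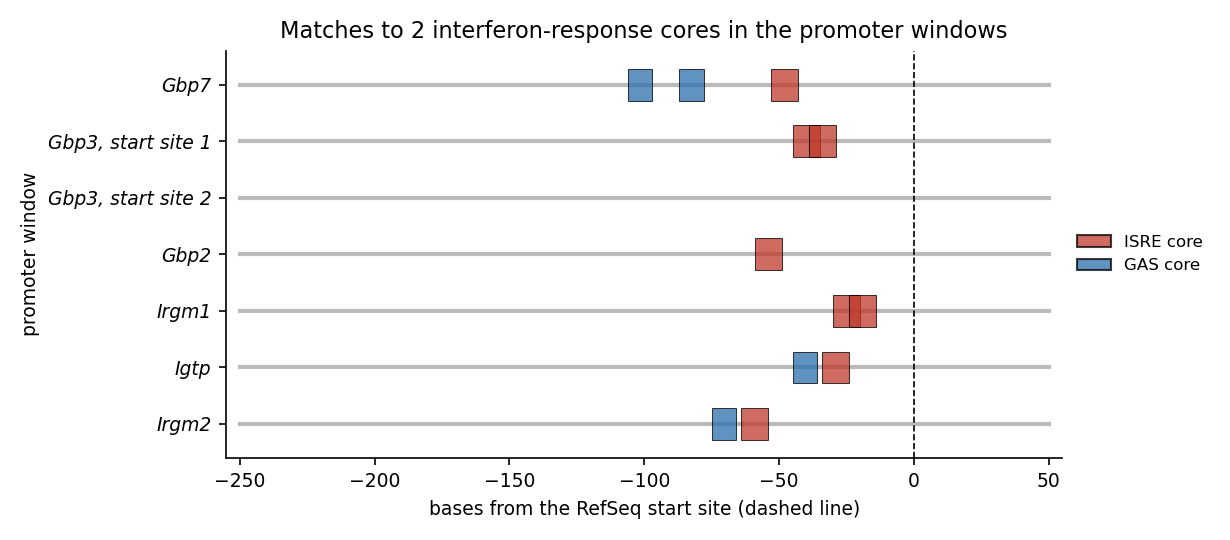
Matches to the ISRE core (red) and the GAS core (blue) in the 7 RefSeq promoter windows of 6 genes, drawn to scale in bases from the start site (dashed line). Every window but that of the other Gbp3 start site holds an ISRE core between positions -64 and -15, and Gbp7, Igtp and Irgm2 hold a GAS core upstream of it.

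At 0d the 9 genes were moderately to weakly expressed. Levels of different genes were compared as CPM per kilobase of the gene length in the table. Igtp, the regulator found on the endoplasmic reticulum, had the highest level at 10.2 ± 0.936 CPM per kilobase (SD, n = 2), and Gbp6 had the lowest at 0.742 ± 0.115. Between them came Gbp2 (5.02 CPM per kilobase), Irgm2 (4.59), Irgm1 (3.79), Gbp3 (3.67), Gbp7 (3.18), Iigp1 (1.59) and Gbp9 (1.07). The 0d libraries of Gbp2 and Irgm2 overlapped, as did those of Irgm1 and Gbp3, so the order within these pairs is not larger than the spread between pools, while the other neighbours in the order did not overlap. Among all tested genes these levels per kilobase ran from percentile 19.0 to percentile 61.5. Gbp7 was the second most abundant by CPM and only sixth per kilobase, because its gene model is the longest of the 9 at 5622 bases.

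At 1d every one of the 9 genes was higher in both libraries than in any of the 6 other libraries. The mean CPM at 1d was 1.97 (Gbp7) to 3.05 (Iigp1) times that at 0d. Among all tested genes, 15.5% had both 1d libraries above both 0d libraries and 3.28% had both above all 6 others. At 3d and 30d the genes were back near their 0d levels, as the values of each show, with replicate 1 before replicate 2.

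Gbp2, whose protein coats vacuoles that hold microbes, gave 14.6 and 10.1 CPM (0d), 43.1 and 23.6 CPM (1d), 11.7 and 11.9 CPM (3d), 16.5 and 11.3 CPM (30d). Gbp3, of the same cluster on chromosome 3, gave 11.8 and 10.0 CPM (0d), 33.1 and 23.2 CPM (1d), 11.9 and 11.9 CPM (3d), 10.8 and 9.20 CPM (30d). Gbp7, whose protein takes part in assembling the oxidase of phagosomes, gave 18.7 and 17.0 CPM (0d), 38.8 and 31.6 CPM (1d), 19.7 and 19.3 CPM (3d), 20.4 and 19.1 CPM (30d). In all of these genes of the chromosome 3 cluster the lower 1d library stood above every library of the other time points, but the 1d libraries of Gbp2 lay far apart, with replicate 1 higher by 0.87 on the log2 scale.

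Gbp6 of the chromosome 5 cluster gave 3.55 and 2.85 CPM (0d), 10.7 and 7.59 CPM (1d), 2.74 and 2.83 CPM (3d), 5.51 and 1.81 CPM (30d). Gbp9 of the same cluster gave 3.38 and 4.37 CPM (0d), 9.82 and 6.32 CPM (1d), 3.82 and 4.31 CPM (3d), 5.05 and 5.16 CPM (30d). Their 0d levels were the lowest of the 9 genes, and their highest library outside 1d came from 30d. For Gbp9 that library, at 5.16 CPM, came close to the lower 1d library at 6.32 CPM.

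Igtp gave 19.3 and 21.98 CPM (0d), 51.8 and 43.0 CPM (1d), 24.1 and 24.2 CPM (3d), 22.3 and 15.7 CPM (30d). Irgm2, which encodes a regulator of the Golgi membrane, gave 16.1 and 16.1 CPM (0d), 46.8 and 34.3 CPM (1d), 20.1 and 18.3 CPM (3d), 18.3 and 12.1 CPM (30d). In both genes the 3d libraries stood above both 0d libraries and the 30d libraries overlapped 0d, which was also so of Gbp3 and Iigp1.

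Irgm1, which encodes a regulator tied to autophagy and mitochondria, gave 9.09 and 7.78 CPM (0d), 23.4 and 19.2 CPM (1d), 8.92 and 9.38 CPM (3d), 10.5 and 7.94 CPM (30d). Iigp1, the effector, gave 5.25 and 4.65 CPM (0d), 17.5 and 12.8 CPM (1d), 5.83 and 6.37 CPM (3d), 5.79 and 4.23 CPM (30d). Iigp1 had the highest ratio of 1d to 0d of the 9 genes, and its 3d libraries stood above both 0d libraries.

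**Figure D2:**
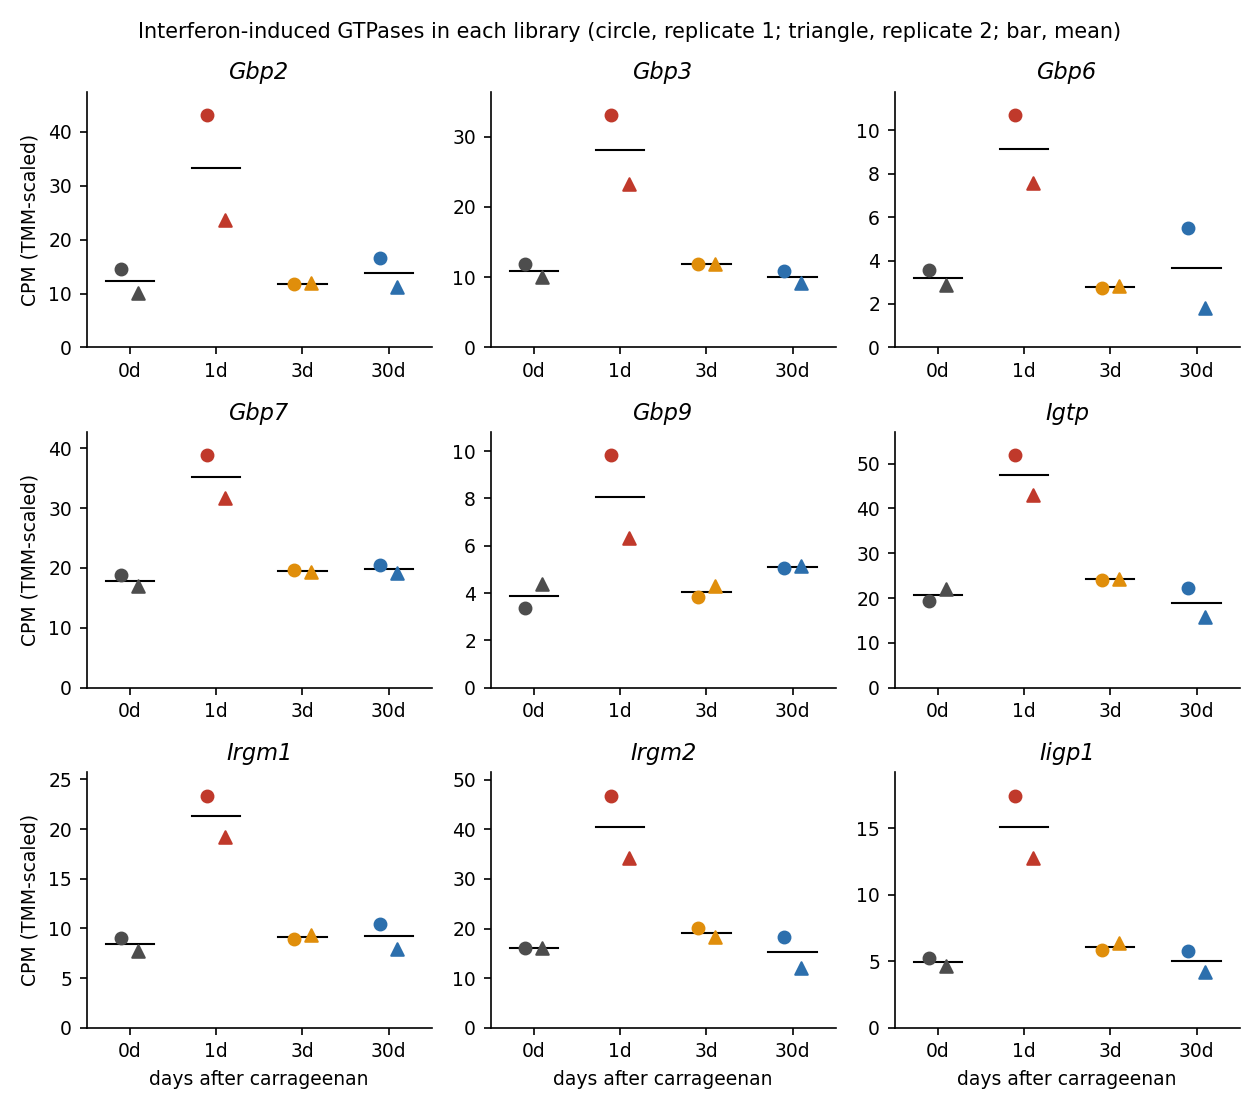
TMM-scaled CPM of each of the 9 genes in the 8 libraries by day after carrageenan, with circles for replicate 1, triangles for replicate 2 and a bar for the mean of the 2 libraries. In every panel both 1d libraries lie above all others, and replicate 1 lies above replicate 2 at 1d.

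In the fit, edgeR's quasi-likelihood test over all 17328 genes with Benjamini-Hochberg adjustment and a threshold of 0.05, 5 of the 9 genes passed at 1d against 0d, all higher, where 0.346% of all tested genes passed in either direction and 0.329% passed as higher. Nothing is read from that contrast, since the genes were chosen with it in view. As log2 fold changes with their standard errors (SE), the 5 were Iigp1 at 1.61 (SE 0.19), Gbp3 at 1.37 (0.16), Irgm1 at 1.34 (0.15), Igtp at 1.1996 (0.16) and Gbp7 at 0.98 (0.10). Gbp6 at 1.52 (0.50), Gbp2 at 1.44 (0.39), Irgm2 at 1.33 (0.22) and Gbp9 at 1.06 (0.21) did not pass. Their fold changes were as high as those of the genes that passed, and their standard errors were higher. The median over the 9 genes was 1.34, beside -0.0032 over all tested genes. The guanylate-binding proteins had a median of 1.37 and the immunity-related GTPases of 1.33.

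The number of genes past the threshold depended on the tool and on single libraries. Gbp3, Gbp7, Irgm1 and Iigp1 passed in each of 9 other settings and with each of the 8 libraries left out. Igtp did not pass without a filter, nor when either 0d library, 1d replicate 1 or either 3d library was left out, and with each of those 5 libraries left out 4 genes passed. DESeq2 called 8 of the 9, all but Gbp6. Without either 30d library edgeR called 8, all but Gbp2, and without 1d replicate 2 it called 7. The median over the 9 genes was 1.09 without 1d replicate 1 and 1.54 without 1d replicate 2.

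**Figure D3:**
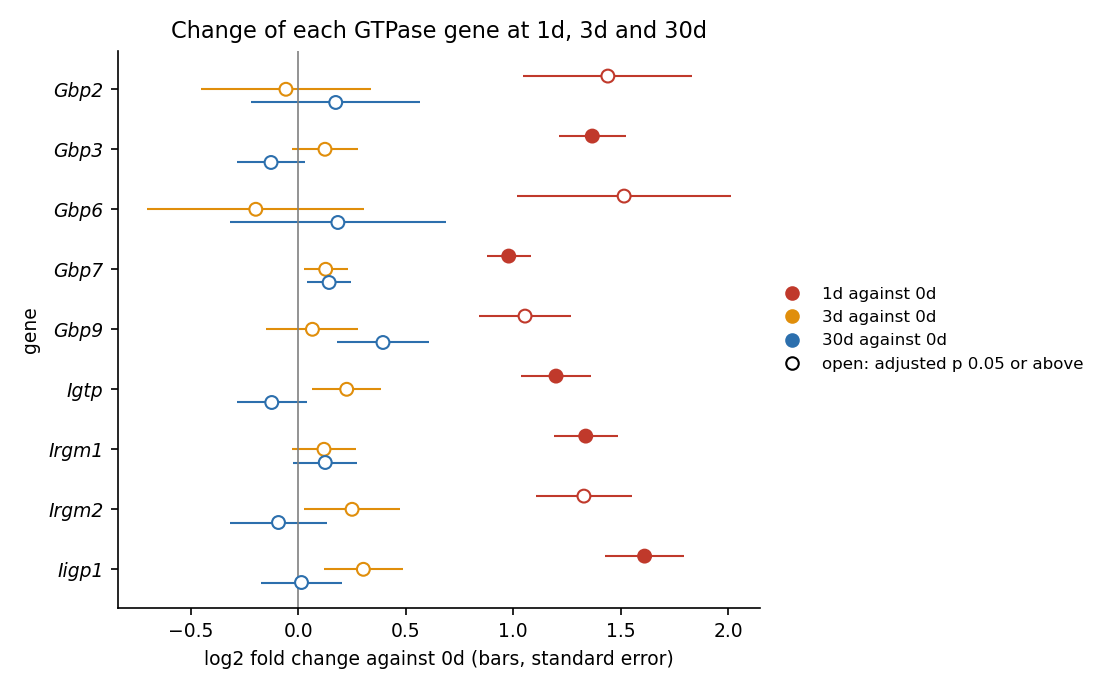
Log2 fold change of each gene at 1d, 3d and 30d against 0d, with bars of 1 standard error from edgeR's fit, and filled points for an adjusted p under 0.05. The 1d points lie between 0.98 and 1.61 and the 3d and 30d points between -0.20 and 0.39, with none of the latter filled.

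The replicates differed in a way the genes shared. At 1d replicate 1 was above replicate 2 for 9 of 9 genes, by a median of 0.45 on the log2 scale, while the median over all tested genes was -0.00089. Against the mean of the 0d libraries, the median of the 9 genes was 1.53 in 1d replicate 1 and 1.09 in 1d replicate 2. At 30d replicate 1 was above replicate 2 for 8 of 9 genes, again by a median of 0.45, and the gap was widest for Gbp6 at 1.58. Over all tested genes the 30d libraries were the least alike of any pair. Their log2 CPM had a correlation of 0.979, against 0.990 to 0.993 for the pairs of the other time points. The median gap over all tested genes at 30d is not given here. Neutrophil markers summed to 248 CPM in 30d replicate 1 and 103 CPM in 30d replicate 2, red blood cell markers to 515 and 276 CPM, and skeletal muscle markers to 105 and 18.0 CPM. The same lists did not separate the 1d libraries in that direction, with neutrophil markers at 118 and 124 CPM, red blood cell markers at 259 and 270 CPM and muscle markers at 27.1 and 58.6 CPM in replicates 1 and 2. T and NK cell markers were higher in replicate 1 at both times, at 3.91 and 2.92 CPM (1d) and 3.86 and 3.07 CPM (30d), as were endothelial markers, at 124 and 113 CPM (1d) and 130 and 112 CPM (30d). The Schwann cell markers Mbp, Prx, Pmp22 and Ncmap ran the other way, with sums of 3192 and 4346 CPM at 30d and 4242 and 4348 CPM at 1d, beside 5678 and 4324 CPM in the 0d libraries and 5000.3 and 4961 CPM in the 3d libraries. The part of these cells in the gap between replicates was not tested.

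At 3d against 0d none of the 9 genes passed in edgeR, DESeq2 or limma-voom, and none had an unadjusted p under 0.05 in edgeR, where 0.219% of all tested genes passed. Their log2 fold changes lay between -0.20 (Gbp6, SE 0.51) and 0.30 (Iigp1, 0.19), with a median of 0.12. Gbp3, Gbp7, Igtp, Irgm2 and Iigp1 had both 3d libraries above both 0d libraries, 5 of 9 where 19.9% of all tested genes did, and Gbp6 had both below, as did 19.6% of all tested genes.

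Against 1d, all 9 genes had both 3d libraries below both 1d libraries, as did 17.6% of all tested genes. In the edgeR fit 4 of the 9 passed, all lower, where 0.289% of all tested genes passed in either direction and 0.265% passed as lower. On the log2 scale these were Iigp1 at -1.31 (SE 0.18), Gbp3 at -1.24 (0.15), Irgm1 at -1.22 (0.15) and Gbp7 at -0.85 (0.10). The other genes lay between -0.97 (Igtp, 0.16) and -1.71 (Gbp6, 0.50), and the median of all 9 was -1.22. This comparison shares the 1d libraries with that of 1d against 0d, so it is no independent view of the rise. None of the 9 passed when either 3d library was left out, 2 passed without 1d replicate 1, and 8 passed without either 30d library or with DESeq2.

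At 30d against 0d none of the 9 passed in edgeR, DESeq2 or limma-voom and none had an unadjusted p under 0.05 in edgeR, where 0.0231% of all tested genes passed. The fold changes ran from -0.13 (Gbp3, SE 0.16) to 0.39 (Gbp9, 0.21) with a median of 0.13. The sign of that median turned on the libraries and tool used: it was -0.23 without 30d replicate 1, 0.23 without 30d replicate 2, -0.027 without 0d replicate 2 and -0.010 with limma-voom. Gbp6 ranged from -0.82 to 0.78 with a library left out. Gbp7 and Gbp9 had both 30d libraries above both 0d libraries, where 19.4% of all tested genes did, and none of the 9 had both below, as 20.2% of all tested genes did. Between 3d and 30d none of the 9 passed either, beside 0.935% of all tested genes, and the median was 0.0058, though Igtp passed when 30d replicate 1 was left out.

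The other members of the families showed how far the pattern reached. Of the remaining guanylate-binding protein genes, 5 were tested, and Gbp4 and Gbp5 rose at 1d. Gbp4 rose from 3.18 ± 0.580 to 9.68 ± 2.98 CPM (SD, n = 2), or by 1.61 on the log2 scale (SE 0.25, edgeR adjusted p = 0.0103), and Gbp5, whose protein promotes inflammasome assembly, from 4.68 ± 0.228 to 10.997 ± 2.27 CPM, or by 1.23 (0.22, edgeR adjusted p = 0.0321). Gbp10 stood at 2.01 (0.81), Gbp11 at 0.051 (0.61) and Gbp8 at -0.40 (0.87), each below 1 CPM on average at 0d. Gbp2b lies 1486 bases upstream of Gbp2 and was left out by the filter, with no more than 13 counts in any library, while Gbp2 next to it reached 1997 counts.

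Of the other immunity-related GTPase genes, 10 were tested and Ifi47 rose at 1d, from 3.85 ± 0.328 to 9.97 ± 0.849 CPM, or by 1.37 on the log2 scale (SE 0.22, edgeR adjusted p = 0.00896). Tgtp2 stood at 1.34 (0.30) and Tgtp1 at 1.51 (0.40), and these near-identical genes share 90.6% and 91.4% of their 50-base words, so their separate counts are uncertain. Gm12185 at 2.57 (1.07), Gm4951 at 2.101 (0.44), Gm12250 at 1.79 (0.45), Gm5431 at 1.43 (0.64), F830016B08Rik at 1.34 (0.55) and 9930111J21Rik1 at 0.21 (0.65) were each under 1 CPM at 0d and did not pass. Irgq, a more distant relative, measured 233 ± 4.84 CPM at 0d and 241 ± 13.01 CPM at 1d, a change of 0.049 (0.044) on the log2 scale. DESeq2 called 4 of these 10 genes at 1d. Irgc1 and 9930111J21Rik2 were left out by the filter.

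Among the Mx and very large GTPases, which also bind GTP in defence against viruses and other microbes, Mx1 rose from 0.561 ± 0.00900 to 3.31 ± 1.17 CPM, or by 2.56 on the log2 scale (SE 0.37, edgeR adjusted p = 0.00406). Mx2 stood at 1.01 (0.31), Gm1966 at 0.61 (0.46), and Gvin1 and Gm4070, whose gene models overlap almost wholly and whose counts are the same, at 1.75 (0.71). Of the 60 genes past the threshold at 1d, which are 0.346% of all tested genes, 9 came from these GTPase families. Of these, 5 were among the genes chosen with the rise at 1d known. The other 4 came from the relatives, of which 5 guanylate-binding, 10 immunity-related and 5 Mx and very large GTPase genes were tested. Gbp4, Gbp5, Ifi47 and Mx1 did not pass without 1d replicate 1, and none of the 4 rested on that library alone: Gbp4 was lost without 0d replicate 2, Mx1 without 0d replicate 1, and Gbp5 and Ifi47 without either 0d library. At 3d against 1d, Gbp4 (-1.56), Gbp5 (-1.25), Tgtp2 (-1.53), Ifi47 (-1.78) and Mx1 (-1.97) were lower by the same test, and each lost that call when 1d replicate 1 or 3d replicate 2 was left out. Under the 9 other settings, Gbp5 lost its 1d call with limma-voom and without robust estimation and its call at 3d against 1d without robust estimation, Mx1 lost the latter call with limma-voom, and Tgtp2 lost it under 4 settings, limma-voom among them. Gbp4 and Ifi47 kept both calls in all 9.

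**Figure D4:**
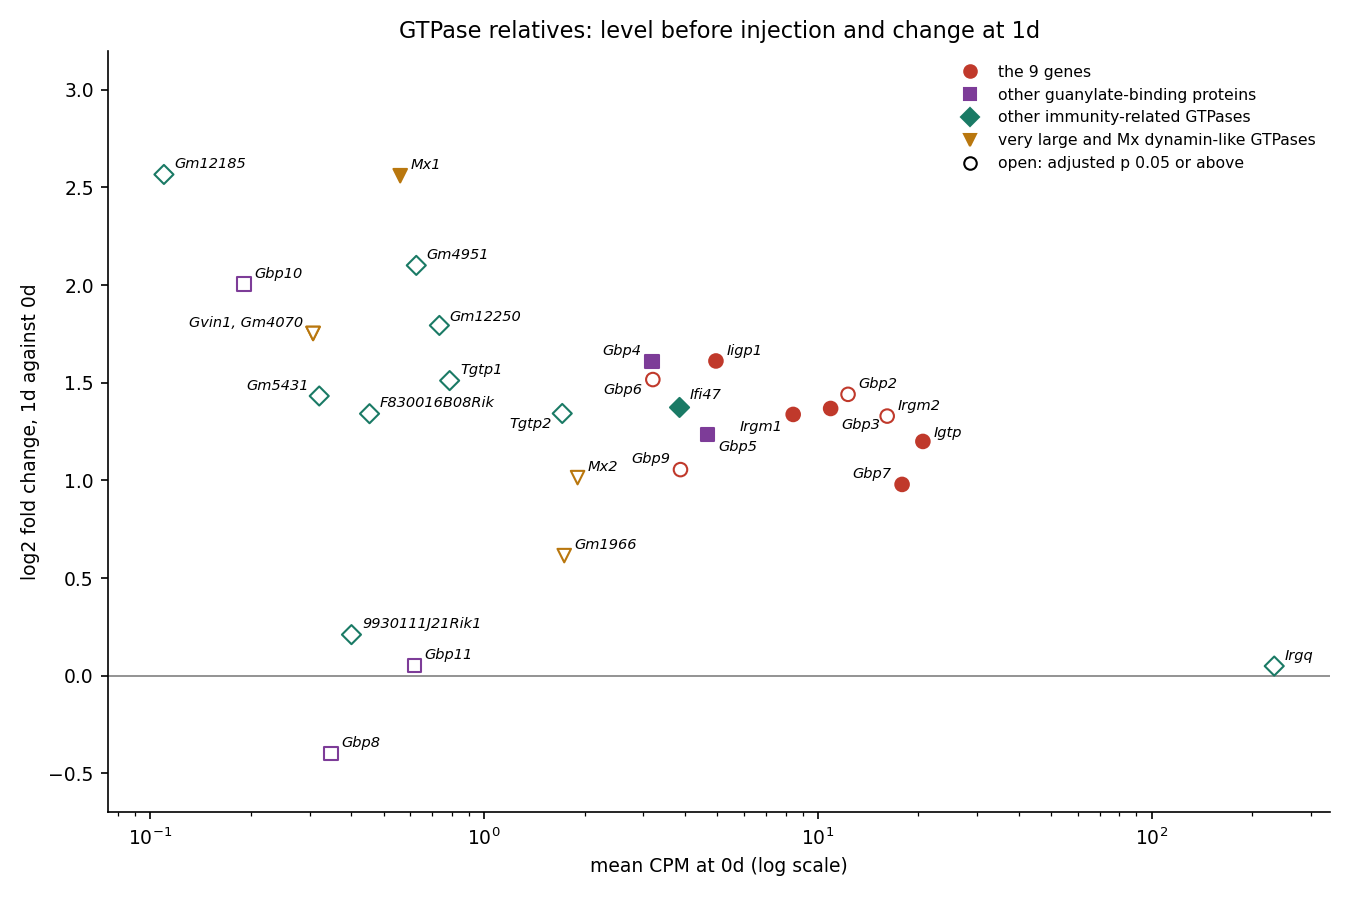
Mean CPM at 0d (log axis) against the log2 fold change at 1d for the 9 genes (circles) and their relatives, filled where the adjusted p is under 0.05. The 9 genes lie to the right of all relatives but Gbp5, Ifi47 and Irgq, and Irgq, Gbp11, 9930111J21Rik1 and Gbp8 lie lowest, between -0.40 and 0.21.

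The signalling genes of the interferon pathway were followed on lists that hold ligands, receptors, transcription factors and inhibitors. All 21 interferon genes in the table, Ifng, Ifnb1 and the alpha, epsilon, kappa, zeta and lambda genes among them, had no count in any library, except for 3 counts of Ifng in 3d replicate 2. Counts of 3, the limit that a count of 0 allows, correspond to 0.0410 to 0.0684 CPM in these libraries. Reads that match several genes equally were not counted, which also bears on the closely related alpha genes. Of the 9 receptor and Janus kinase genes, none passed in edgeR at 1d, where 1 had an unadjusted p under 0.05, and DESeq2 and limma-voom called none. Their log2 fold changes lay between -0.075 and 0.20 with a median of 0.011. Ifngr1, a chain of the interferon gamma receptor, measured 31.1 ± 2.32 CPM at 0d and 32.7 ± 0.131 at 1d, and Ifngr2, the other chain, 69.5 ± 0.741 and 66.0 ± 1.98.

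Of 12 transcription factor genes, 3 rose at 1d and none fell, with a median of 0.53 over the list. Irf7, an amplifier of the type I response, rose from 7.09 ± 0.596 to 22.1 ± 2.90 CPM, or by 1.64 on the log2 scale (SE 0.16, edgeR adjusted p = 9.21e-05). Stat2, used by type I interferons, rose from 75.2 ± 3.24 to 121 ± 7.87 CPM, or by 0.69 (SE 0.06, edgeR adjusted p = 4.3e-05). Both calls held with each library left out, and DESeq2 called 6 genes of the list. Irf1, the classical target of interferon gamma, stood at 0.50 (0.10) and did not pass at 1d (edgeR adjusted p = 0.0653), though it was lower at 3d than at 1d by 0.62 on the log2 scale (edgeR adjusted p = 0.0151), a call lost without 1d replicate 1 or either 3d library. Of 6 feedback inhibitors only Usp18 passed, which removes ISG15 from proteins and restrains the type I receptor, by 1.42 on the log2 scale (SE 0.18, edgeR adjusted p = 0.00133).

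Effectors of the antiviral IFIT and OAS families had a median of 1.03 on the log2 scale at 1d, and 5 of 15 rose: Ifit3b (1.81), Ifit3 (1.74), Ifit1 (1.68), Oasl2 (1.03) and Ifit2 (0.43). DESeq2 called 7, and Ifit2 was lost without any of the 0d and 1d libraries. Ifit1 and Oasl2 were still above 0d at 3d, at 0.76 (SE 0.10, edgeR adjusted p = 0.00794) and 0.66 (0.07, edgeR adjusted p = 0.00218), unlike the 9 GTPases, none of which passed there. The Ifit1 call at 3d was lost without 0d replicate 1 or either 3d library and the Oasl2 call without 3d replicate 1. Whether these effectors and the GTPases differ at 3d was not tested.

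Genes often used to read interferon gamma, 16 of them tested, had a median of 0.46 at 1d, and 4 rose. Tap1, the peptide transporter of antigen presentation, rose by 1.42 (SE 0.13, edgeR adjusted p = 4.77e-05), and Psmb9, a subunit of the immunoproteasome, by 1.12 (SE 0.19, edgeR adjusted p = 0.0156). Cd74, which encodes the invariant chain of MHC class II, and the MHC class II gene H2-Eb1 rose by 0.32 (0.05, edgeR adjusted p = 0.00577) and 0.34 (0.06, edgeR adjusted p = 0.0220). The chemokine genes Cxcl9, at 1.74 (0.67), and Cxcl10, at 1.28 (0.41), did not pass and had 1d libraries far apart, by 1.90 and 0.91 on the log2 scale with replicate 1 higher. The Tap1 call held with each library left out, Cd74 was lost without 1d replicate 1, Psmb9 without either 1d library or 0d replicate 2, and H2-Eb1 without any of the 0d, 1d and 3d libraries, with limma-voom or with the compared groups alone. DESeq2 called 8 genes of this list, and 1 passed in edgeR without 1d replicate 1.

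Of 18 genes for partners of the GTPases in handling vacuoles and in inflammasomes, such as Atg5, Gabarapl2, Casp1 and Gsdmd, none passed at 1d in edgeR, DESeq2 or limma-voom, and 2 had an unadjusted p under 0.05 in edgeR. Their median was 0.023, with a range from -0.18 to 0.56, the highest value being that of Trim21.

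**Figure D5:**
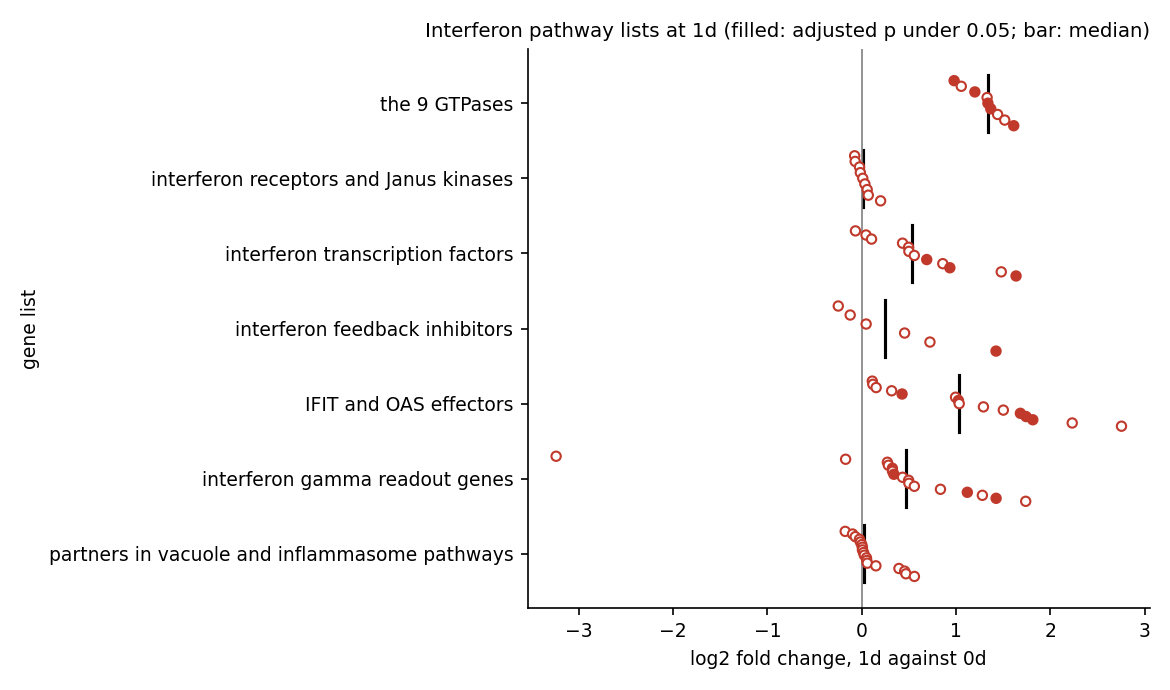
Log2 fold change at 1d against 0d for the genes of each list, filled where the adjusted p is under 0.05, with a bar at the list's median. The 9 GTPases lie between 0.98 and 1.61, receptors and Janus kinases between -0.075 and 0.20, and the lone point at -3.24 is Nos2, which had 0.226 ± 0.0259 CPM at 0d and did not pass.

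Markers of cells that could bring these RNAs into the ganglion were read beside the result. The 11 macrophage markers, Aif1, Csf1r and C1qa among them, summed to 116 to 134 CPM at 0d, 138 CPM in both 1d libraries, 119 to 123 CPM at 3d and 126 to 131 CPM at 30d, and none passed at 1d, though 4 had an unadjusted p under 0.05 in edgeR. Their log2 fold changes at 1d ran from -0.27 to 0.86 with a median of 0.15, and 7 of the 11 were above 0. C1qa, C1qb, C1qc and Fcgr1 had both 1d libraries above all 6 others, as did 3.28% of all tested genes. Cx3cr1 was lower at 3d than at 0d, by -1.02 on the log2 scale (edgeR adjusted p = 0.00794), a call lost without either 3d library, and lower than at 1d, by -0.75 (edgeR adjusted p = 0.0476), a call that held with 2 of the 8 libraries left out in turn. The 12 T and NK cell markers summed to 3.01 to 3.46 CPM at 0d and 2.92 to 3.91 CPM at 1d, with Cd3d, Cd8a, Ncr1, Gzmb and Prf1 at 0 in some libraries. Neutrophil markers, 8 in the table, summed to 48.7 to 104 CPM at 0d, 118 to 124 CPM at 1d and 155 to 157 CPM at 3d. None of the 8 passed in edgeR, DESeq2 or limma-voom at 1d or 3d against 0d, and 1 had an unadjusted p under 0.05 in edgeR in each of these comparisons. Skeletal muscle markers summed to 68.1 to 127 CPM at 0d and 27.1 to 58.6 CPM at 1d, and of them Myh1 was lower at 1d, by -1.47 (edgeR adjusted p = 0.0324), and at 3d against 0d, by -1.61 (edgeR adjusted p = 0.0237). The 1d call held with 3 of the 8 libraries left out in turn and the 3d call with 5, and neither held with limma-voom. Red blood cell markers summed to 141 to 282 CPM at 0d and 259 to 270 CPM at 1d. The part of macrophages, neutrophils, muscle and blood in the result was not tested.

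By a fixed rule, the 5 genes outside the 9 whose log2 CPM followed the mean standardized profile of the 9 most closely over the 8 libraries included Herc6, Parp14, Zc3hav1 and Samd9l, with Pearson's r from 0.978 to 0.988. This is a description over libraries that fall into a 1d pair and 6 others, which all genes share, and no p is given. Herc6, the mouse ligase for ISG15, had a mean of 5.80 CPM before injection and 11.3 CPM 1 day after it, and Zc3hav1, which encodes an antiviral RNA-binding protein, had means of 17.4 and 27.0 CPM. Their log2 fold changes at 1d were 0.96 and 0.63, and those of Parp14 and Samd9l 0.78 and 0.54, all below that of every gene of the 9, the lowest of which was Gbp7 at 0.98.

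Reads that match 2 places equally were not counted, and a read that overlapped 2 genes was counted for both without regard to strand, so close copies and overlaps bear on the counts. Of Irgm1, no 50-base word was found in transcripts of other genes, and of Gbp2, Gbp3 and Iigp1 2.07%, 4.79% and 3.19% were. Of Igtp 12.3% of the words recurred in other genes, most of all in Irgm2, whose GENCODE transcripts cover 8.01% of the exon bases of Igtp. Of Irgm2 7.30% recurred, most of all in Igtp, and of Gbp9 8.31%, most of all in Gbp8. Gbp6 is the least certain: 59.7% of its words recurred in other genes, most of all in Gm43302, a GENCODE gene that covers 40.0% of its exon bases. Of Gbp10 82.5% recurred, also most of all in Gm43302. Of Gbp7 12.8% recurred, most of all in Gm43802, which covers 11.3% of its exon bases. Words in bases covered by 2 GENCODE genes lie at the same place and are no second copy. No other gene of the count table overlapped the exons of Gbp6 or Gbp7. The share of words due to such overlap was not worked out. Gbp2 overlaps the microRNA gene Mir6381 on the opposite strand over 0.978% of its exon bases.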

How the data were processed

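RNA from pooled mouse DRG was sequenced in 8 libraries at 0d, 1d, 3d and 30d. The authors used cutadapt 2.10 for trimming, STAR 2.7.5a for alignment to mm10 and featureCounts 2.0.1 for counting on UCSC genes, and they deposited raw, unnormalized counts per gene. Counting was not strand-specific. Here all 24421 genes were taken through filterByExpr, TMM scaling and edgeR's quasi-likelihood test with robust estimation (R 4.3.3, edgeR 4.0.16) over all 8 libraries, with 5 comparisons and Benjamini-Hochberg adjustment at 0.05. Standard errors were taken from the log2 fold change and its F statistic. The members and lists were chosen with earlier results of these data known. The rule for named genes covered every member and family gene, up to 5 genes of each other list past the threshold, and the 5 genes most like the members. Others named were chosen after their values were seen. DESeq2 1.42.0, limma 3.58.1, other filters and normalizations, and leaving out each library were tried. With 2 libraries a group an exact permutation test cannot pass 0.05. The study's methods call the pools of a time point experimental duplicates, and p-values measure the spread between these pools. Sequence words were taken from GENCODE vM21 transcripts. Protein sequences were not used here. Some results that these rules cover are not reported here.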

Additional observations from a re-analysis of the deposited data

Results flagged for a closer look

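The change at 3d differed from that at 1d by the fit's own test of 3d against 1d for 4 of the 9 genes. The difference was -1.24 on the log2 scale for Gbp3, -0.85 for Gbp7, -1.22 for Irgm1 and -1.31 for Iigp1 (edgeR, n = 2 libraries each). The genes were chosen with this pattern in view, so the values are a description. In each of them both 3d libraries were below both 1d libraries. None of the 4 passed when either 3d library was left out, and Irgm1 and Iigp1 also did not pass without 1d replicate 1. With 2 libraries a group, no test for an outlying library was run.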

How the results depend on the processing

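The 9 genes kept their direction at 1d and at 3d against 1d in every setting tried. Other settings moved the numbers of genes called. At 1d 95 genes passed without a filter, 110 with DESeq2 and 33 at a threshold of 0.01, and 8 of the 9 with DESeq2. At 3d 89 passed without a filter, 20 without robust estimation, 109 with DESeq2, 25 with limma-voom, 121 with the compared groups alone and 13 at 0.01. At 30d 177 passed without a filter, 184 with DESeq2, 2 with limma-voom, 1 at 0.01 and 72 at 0.10, and 0 passed without robust estimation or with the groups alone, where edgeR gave 2137 and 1366 an unadjusted p under 0.05. For 3d against 1d 99 passed without a filter, 110 with DESeq2, 260 with the groups alone, 20 at 0.01 and 81 at 0.10, and of the 9 genes 8 with DESeq2 and 7 without robust estimation or with the groups alone. For 30d against 3d 358 passed without a filter, 92 without robust estimation, 378 with DESeq2, 273 with the groups alone, 45 at 0.01 and 290 at 0.10. The cause of these shifts was not tested.

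With each library left out in turn, 26 to 111 genes passed at 1d, 1 to 121 at 3d, 1 to 202 at 30d, 5 to 117 for 3d against 1d and 12 to 525 for 30d against 3d. Of the 9 genes, 4 to 8 passed at 1d, 0 to 8 for 3d against 1d, 0 to 1 for 30d against 3d, and 0 at 3d and 30d. Their median ranged from 1.09 to 1.54 at 1d, 0.058 to 0.23 at 3d, -0.23 to 0.23 at 30d, -1.35 to -0.97 for 3d against 1d and -0.37 to 0.064 for 30d against 3d.

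Deviations of libraries with the same replicate number had correlations from -0.014 to 0.044 over all tested genes. Such a correlation would miss a pairing that acts on few genes, so it cannot decide whether the numbers pair the libraries. With the replicate number as a block, 7 of the 9 genes passed at 1d and 6 at 3d against 1d, beside 5 and 4 without the block. Over all genes 73 passed at 1d, 50 at 3d, 69 at 30d, 77 between 1d and 3d, and 225 between 3d and 30d. Without the block these numbers were 60, 38, 4, 50 and 162.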
